A study of Zea mays with 15 samples.

Results

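Maize genomic sites with a peak of in vitro binding by ARF16 and by ARF34, and no peak of the other 12 ARFs with deposited lists, were examined. A missing peak means that no binding was called, not that binding was absent. The paper also profiled ARFs that did not pass its quality controls, and these are not covered here. Overlapping peaks of the 14 deposited lists were merged into 124379 sites. Members were the sites with a peak of ARF16 and of ARF34 and no peak of another list, and 8966 sites met this rule (7.21% of all sites). The members were thus chosen by the peak calls themselves, and their calls and signals are given as a description. DAP-seq was performed with GST-ARF fusion proteins purified from bacteria and genomic DNA from young ears of the inbred B73, with 1 library per ARF; GST-HALO made in wheat germ extract served as the negative control. The ARF34 library (GRMZM2G081158) had been reduced to 15000000 reads after mapping, whereas no depth is given for the ARF16 library (GRMZM2G028980). The other lists were those of ARF27, ARF35, ARF18, ARF4 and ARF29 of clade A and of ARF25, ARF10, ARF13, ARF39, ARF36, ARF14 and ARF7 of clade B, with 7520 (ARF18) to 38272 (ARF25) peaks each. Because no replicate library was among the lists used, no test between ARFs was made, and the 95% intervals below cover counting error over sites only. Neighbouring sites are not independent, and PCR reads without molecular identifiers are not independent molecules.

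ARFs are plant transcription factors of the auxin response. They contact DNA through an N-terminal B3 domain, recognise sequences with a TGTC core, and can dimerise on adjacent copies of that core. Aux/IAA proteins hold particular ARFs back when auxin is low and are degraded when auxin is high. The paper describes the interaction of clade B ARFs with Aux/IAA proteins as uncertain. ARF16 and ARF34 belong to clade A, the group generally regarded as transcriptional activators, and ARF18 is their nearest relative in the study. DAP-seq uses naked DNA, so it reports where a protein can bind in the absence of chromatin and says nothing about whether a site is used in a tissue. The study asked whether single family members select their own sites, and sites shared by only these relatives bear on that question.

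ARF16 and ARF34 had a peak together at 35061 sites (28.2% of all sites), of which the members made up 25.6% (25.1 to 26.0%). The members were also the most frequent class when these sites were sorted by the number of further ARFs. The count fell to 6367 sites with 1 further ARF and 4624 with 2, and 542 sites held all 12 further ARFs. This order depended on the lists. With equal list lengths, 398 sites were members (7.95% of the sites with both ARFs) and the most frequent class was that with 5 further ARFs (973 sites). With a −log10 q of at least 10 required of ARF16 and ARF34, 2330 sites were members (12.3%) and 2790 had 1 further ARF. Seen from each list, 23.4% of the 38368 ARF16 sites were members (22.9 to 23.8%), but only 13.0% of the 68819 ARF34 sites (12.8 to 13.3%). The ARF34 list was also much longer, with 74603 peaks against 42091 for ARF16. ARF34 had a peak without any other ARF at 23270 sites, and ARF16 at 1654.

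**Figure D1:**
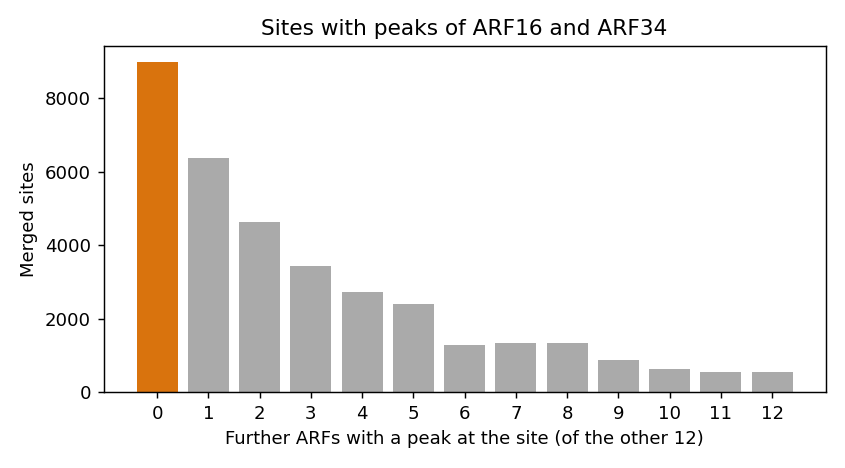
Number of merged sites with peaks of ARF16 and ARF34 (vertical axis), by how many of the other 12 ARFs also had a peak there (horizontal axis). The orange bar holds the 8966 sites of ARF16 and ARF34 only, and the grey bars fall from 6367 sites with 1 further ARF to 542 with 12.

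ARF27 and ARF4 were the most frequent further ARFs, and theirs were also the longest other lists of clade A. Their lists covered 28534 and 27068 sites, against 13394 for ARF29, 8823 for ARF35 and 7222 for ARF18, and the ARF27 library had been reduced to 20000000 reads. Among the 6367 sites with exactly 1 further ARF, this was ARF27 at 3449 sites (54.2%) and ARF4 at 2093 (32.9%), and both belong to clade A. ARF18 was the further ARF at 312 of these sites, although 6868 of its sites lay at sites of ARF16 and ARF34. Its list was the shortest, with 7520 peaks, and the absence of ARF18 from a site and the length of its list cannot be told apart. ARF39 and ARF13 were the only further ARF at 2 and 3 sites. The longest other lists were those of ARF25 (36932 sites) and ARF10 (32713 sites), both of clade B. These were the only further ARF at 50 and 119 sites. Without the ARF27 list 12422 sites would have met the rule, and without the ARF4 list 11068.

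Most members had a simple structure. A single peak of each ARF was present at 8456 members (94.3%, 93.8 to 94.8%), compared with 77.8% of the 26095 sites that held further ARFs (77.3 to 78.3%). At 339 members there was 1 ARF16 peak with several ARF34 peaks, at 111 several ARF16 peaks with 1 ARF34 peak, and at 60 several of each. Where a list had several peaks in a member, the closest of them lay a median of 70 bp apart for ARF16 (171 members) and 66 bp apart for ARF34 (399 members). All deposited peaks were 201 bp wide, and the median width of a member was 202 bp. The widest member, chr9:114363611-114364089 (B73 RefGen version 3, 1-based), spanned 479 bp and held 1 ARF16 and 3 ARF34 peaks.

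Members ranked low in the ARF16 list and near the middle of the ARF34 list. The peak signal is the read depth assigned to a binding event and is not scaled between libraries, so it was turned into a rank from 0 (weakest peak of a list) to 100 (strongest). In ARF16 the signal of members ranged from 19.1 to 346 reads with a median of 43.5, and the median rank was 32.8 (quartiles 16.7 and 51.6). In ARF34 the signal ranged from 19.0 to 330 reads with a median of 53.2, and the median rank was 54.2 (quartiles 32.4 and 72.0). At sites with further ARFs the median ranks were 63.6 in ARF16 and 77.2 in ARF34. Sites of a single ARF lay below the members, with a median rank of 14.7 for ARF16 alone and 30.4 for ARF34 alone.

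The strength of the peak calls followed the same order. The median −log10 q of members was 7.84 in ARF16 and 11.4 in ARF34, where the limit of the lists was 5. The ARF16 call lay below 6, close to this limit, at 21.8% of members (21.0 to 22.7%) and at 7.80% of sites with further ARFs (7.48 to 8.13%). For ARF34 the shares were 9.64% (9.04 to 10.3%) and 3.30% (3.09 to 3.53%).

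The share of sites without any further ARF fell steadily as the signal rose. When the peaks of the ARF16 list were divided into 10 equal bins by rank, 49.2% of the shared sites in the weakest bin were members (47.3 to 51.1%), against 27.1% in bin 6 (25.6 to 28.5%) and 0.81% in the strongest bin (0.574 to 1.14%, 32 of 3950 sites). By ARF34 signal the share was 53.3% in the weakest bin (50.4 to 56.1%), 34.5% in bin 6 (32.9 to 36.1%) and 4.80% in the strongest (4.32 to 5.33%). Shared sites with a strong signal were therefore rarely without a peak of another ARF. The rule uses the call limits of the other lists, so these shares are a description.

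**Figure D2:**
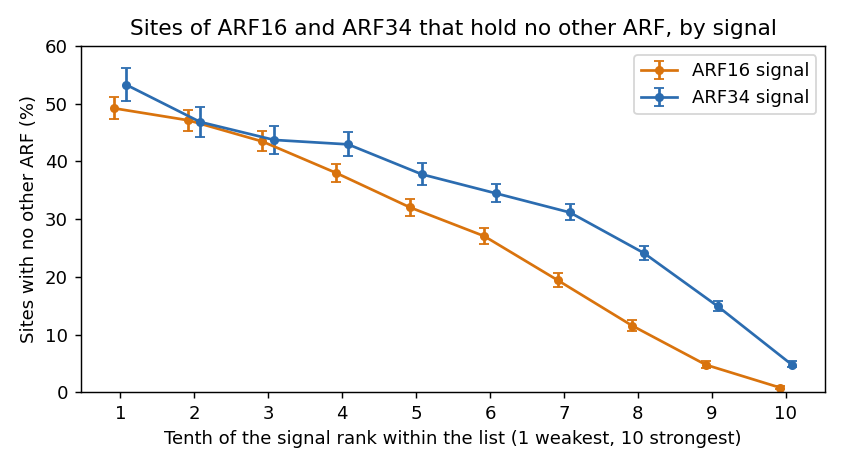
Share of the sites with both ARFs that held no other ARF (vertical axis, percent), in 10 bins of signal rank within the ARF16 list (orange) and the ARF34 list (blue); bars are 95% Wilson intervals. The ARF16 curve falls from 49.2% to 0.81%, and the ARF34 curve from 53.3% to 4.80%.

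Most sites of the pair stood higher within the ARF34 list than within the ARF16 list. The ARF34 rank was above the ARF16 rank at 77.4% of members, 75.8% of sites with 1 further ARF and 73.6% of all sites with further ARFs, and the median difference in members was 15.2 points. In members this difference was nearly absent when signals were ranked among the 35061 shared sites alone. The median rank of members was then 28.0 in ARF16 and 29.9 in ARF34, and 51.3% of members ranked higher in ARF34. On this scale ARF34 ranked higher at 48.9% of sites with 1 further ARF and 46.0% of all sites with further ARFs. At the sites with all 12 the share was 35.2%. Across the 8966 members Spearman's rho between the ranks in both lists was 0.53, compared with 0.59 across the sites with 1 further ARF and 0.84 across the 542 sites with all 12. These are descriptions across sites that share the genomic DNA and the control library. In reads, members spanned a narrower range of signal than sites with further ARFs. By rank within the list, their quartiles lay further apart than at the sites with all 12. In ARF34 they were 32.4 and 72.0 in members and 93.1 and 99.1 at those sites. Whether these ranges bear on rho was not tested.

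The strongest members were picked by the mean of their ranks in both lists, so their high signals follow from the choice. The highest mean rank, 95.7, belonged to chr10:74123812-74124020, where the signal was 257 reads in ARF16 and 245 in ARF34, with a −log10 q of 55.7 and 56.2. At chr10:122821116-122821317 the signal was 271 reads in ARF16 and 228 in ARF34. The highest ARF16 signal of any member, 346 reads, was at chr2:192972135-192972349, where ARF34 had 189. At this site the nearest peak of any other list lay 17491 bp away. These 3 members, like the others among the 10 of highest mean rank, ranked in the top 10% of both lists. By the rule, no other list had a peak there.

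The other members among the 10 of highest mean rank were on chromosome 2 (86145621 to 86145822), chromosome 3 (202060362 to 202060563), chromosome 6 (57938366 to 57938567), chromosome 8 (115295022 to 115295223, and 83525190 to 83525392), chromosome 7 (138498651 to 138498852) and chromosome 1 (62671451 to 62671652). Their ARF16 signals were 180.4 to 238 reads and their ARF34 signals 191.8 to 308.1 reads. The chromosome 8 member at 115295022 was the most isolated of them, 61000 bp from the nearest site of any ARF. On the chromosomes not yet named, the strongest members were chr4:170726625-170726826 (181 reads in ARF16 and 224.8 in ARF34), chr5:116177589-116177790 (171 and 175 reads) and chr9:34041258-34041459 (234 and 154 reads). Gene features and sequences at these positions were not analysed here.

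Some members had very different ranks in the lists of ARF16 and ARF34. The largest excess of ARF34 was at chr2:52436813-52437040, with 27.6 reads in ARF16 (rank 4.41) and 196.9 in ARF34 (rank 94.7). It was followed by chr5:110026692-110026921 (28.1 and 178 reads), chr2:172973564-172973765 (21 and 131 reads), chr5:88146746-88146985 (26.9 and 159 reads) and chr8:102718556-102718757 (26.8 and 134 reads). The rank difference (ARF34 minus ARF16) was 90.3 points at the first of these, and at the opposite extreme −63.5 points. Ranked among the shared sites alone, the same members differed by 85.9 and −60.4 points. At chr2:143225886-143226165 ARF16 had 73.2 reads (rank 64.5) and ARF34 22.5 (rank 0.92), with summits 79 bp apart. The next were chr8:85535598-85535799 (63 reads in ARF16 and 25.6 in ARF34), chr5:64519130-64519350 (61 and 24.3 reads), chr10:62487255-62487456 (62.9 and 26.4 reads) and chr7:28750437-28750638 (71 and 30 reads). Except at chr7:28750437-28750638, the weaker call at these named members had a −log10 q below 6, near the limit of 5. The −log10 q of the weaker call was 5.26 to 5.77 in ARF16 where ARF34 ranked higher. It was 5.17 to 7.04 in ARF34 where ARF16 ranked higher.

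The positions of the summits, which the rule used only through overlap, were then compared. In members the summits of ARF16 and ARF34 lay exactly 1 bp apart at 6487 sites (72.4%, 71.4 to 73.3%), and at the same base at 39 (0.435%, 0.318 to 0.594%). The offset had no preferred direction along the reference strand, with the ARF34 summit above that of ARF16 at 3235 members and below it at 3252. Summits lay more than 50 bp apart at 5.81% of members (5.35 to 6.31%). Summit positions come from a peak caller that places binding events with enriched k-mers, so this offset describes called positions, and its origin was not tested. A member with 1 peak of each ARF and this offset is 202 bp wide, the median width.

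Over all sites of both ARFs 68.9% of summit pairs were 1 bp apart, and at sites with further ARFs 67.7% (67.2 to 68.3%). The share in members was higher by 4.63 percentage points (3.53 to 5.70). The number of peaks per site moved with this value. Among sites with a single peak of each ARF it was 0.894 points, with an interval that includes 0 (−0.235 to 2.01), and the share was 73.5% in such members but 52.9% in members with several peaks (48.6 to 57.2%). The 1 bp offset was thus common to members and to other sites of the pair.

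The remaining summit pairs were spread over many distances. A few of these are given below, singled out after their values were seen. In members the most frequent distance beyond 1 bp was 12 bp (124 sites, 1.38%, 1.16 to 1.65%), with ARF34 above ARF16 at 61 and below at 63. At sites with further ARFs the share at 12 bp was 1.03% (0.912 to 1.16%), lower by 0.356 points (0.0991 to 0.644). Another local maximum lay at 33 bp in members (76 sites, 0.848%, 0.678 to 1.06%), against 0.582% at sites with further ARFs (0.497 to 0.682%). At a distance of 29 bp the order was reversed, with 28 members (0.312%, 0.216 to 0.451%) and 1.03% of the sites with further ARFs (0.915 to 1.16%), a difference of −0.719 points (−0.880 to −0.538). The share at 29 bp was 0.346% at sites with 1 or 2 further ARFs (0.252 to 0.474%) and 2.70% at sites with 6 or more (2.34 to 3.13%). At 12 bp these shares were 1.18% (0.997 to 1.40%) and 0.840% (0.646 to 1.09%). The maximum at 33 bp was not particular to members. Sites with exactly 1 further ARF also had it (43 sites, 0.675%, 0.502 to 0.908%), with an interval that overlapped that of members. With 1 peak of each ARF the differences kept their direction, at 0.291 points for 12 bp (0.0126 to 0.598), 0.295 for 33 bp (0.0958 to 0.525) and −0.586 for 29 bp (−0.754 to −0.402). These distances involve few sites, and the letters of the sites were not analysed here.

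**Figure D3:**
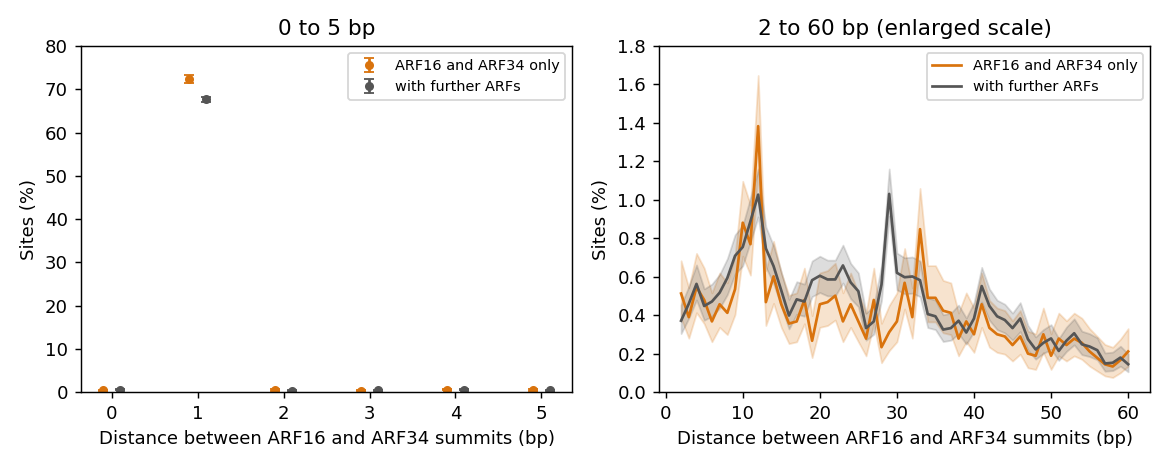
Share of sites (vertical axis, percent) at each distance between the ARF16 and ARF34 summits (horizontal axis, bp), for sites of ARF16 and ARF34 only (orange) and sites with further ARFs (grey), with 95% Wilson intervals as bars (left) or bands (right). At 1 bp lie 72.4% and 67.7% of sites; on the enlarged scale members have local maxima at 12 and 33 bp, and sites with further ARFs at 12 and 29 bp.

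Members were spread more evenly along the chromosomes than the sites that other ARFs also bound. Maize genes are densest towards the ends of the chromosomes. The terminal 20% of chromosome length, 10% per end and called the outer 20% here, held 21.8% of members (20.9 to 22.6%) and 23.9% of all sites. At sites with further ARFs the share was 27.8% (27.2 to 28.3%), so that members were lower by 6.01 percentage points (−7.02 to −4.99). In the middle 20% the order was opposite, with 19.2% of members (18.4 to 20.0%) against 14.9% of sites with further ARFs (14.4 to 15.3%). Divided into 10 equal bins along the chromosome, the bins held between 8.89% and 11.4% of members, compared with 6.48% to 14.6% of the sites with further ARFs.

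**Figure D4:**
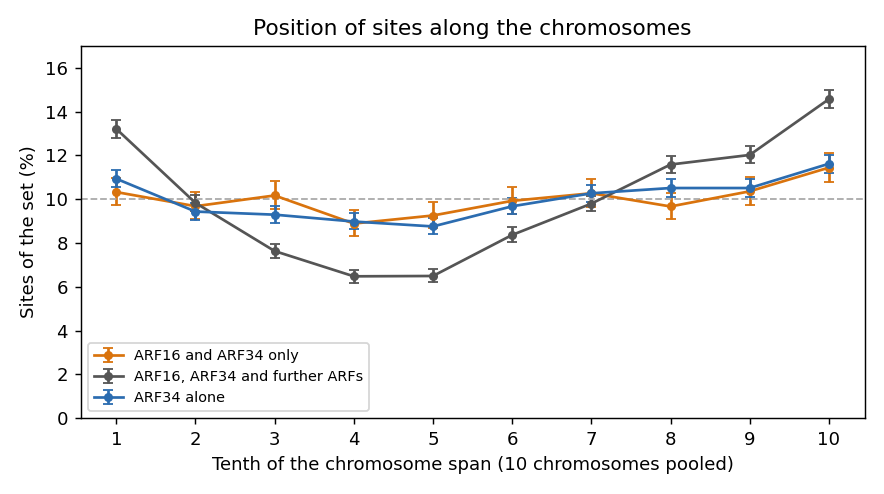
Share of each set of sites (vertical axis, percent) in 10 equal bins along the chromosome span, the 10 chromosomes pooled (horizontal axis); bars are 95% Wilson intervals and the dashed line marks an even spread. Members (orange) stay between 8.89% and 11.4%, close to sites of ARF34 alone (blue), whereas sites with further ARFs (grey) range from 6.48% to 14.6%.

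In this respect members lay close to the sites of a single ARF. The outer 20% held 22.6% of sites of ARF34 alone (22.0 to 23.1%) and 20.9% of sites of ARF16 alone (19.0 to 22.9%). The differences from members were −0.786 points (−1.79 to 0.231) and 0.913 points (−1.28 to 2.99), and both intervals include 0. Sites with exactly 1 further ARF differed according to which ARF it was. Where it was ARF4, 21.4% lay in the outer 20% (19.7 to 23.2%), a difference from members of 0.414 points (−1.58 to 2.32). Where it was ARF27, the share was 27.6% (26.1 to 29.1%), and members were lower by 5.80 points (−7.54 to −4.10).

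The share in the outer 20% rose with the number of further ARFs, from 24.7% with 1 (23.7 to 25.8%) to 31.3% with 5 (29.5 to 33.2%). It did not rise throughout, since it was 24.2% with 8 further ARFs (22.0 to 26.6%), and it reached 36.3% with 12 (32.4 to 40.5%). Members were also weaker, and position was compared within 5 equal bins of the mean rank in both lists, a comparison added after seeing the data. Sites were not matched in strength within a bin, and whether strength accounts for the difference was not tested. Members had the lower share in each bin, with differences of −4.33, −4.10, −4.87, −7.47 and −6.41 points from weakest to strongest. The interval included 0 only in the strongest bin, which held 176 members. With equal list lengths, which left 398 members, the difference was −1.56 points (−6.03 to 3.27).

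**Figure D5:**
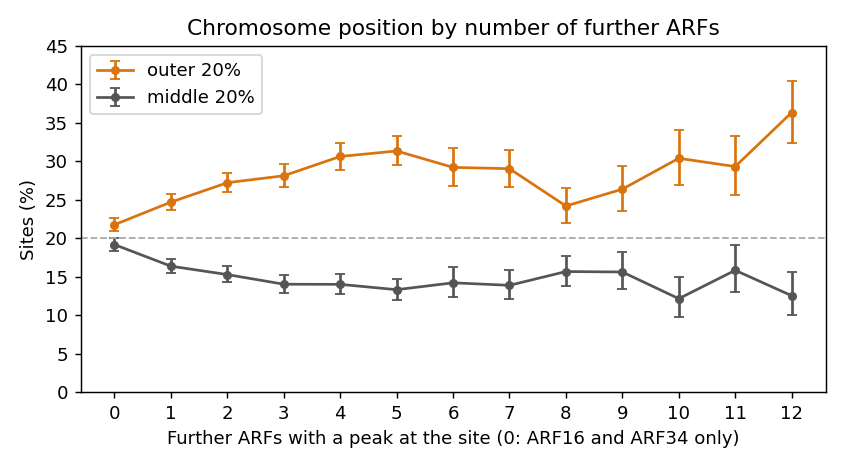
Share of sites of ARF16 and ARF34 in the outer 20% (orange) and in the middle 20% (grey) of the chromosomes (vertical axis, percent), by the number of further ARFs with a peak (horizontal axis); bars are 95% Wilson intervals and the dashed line marks an even spread. Members, at 0 further ARFs, lie at 21.8% and 19.2%, and sites with 12 further ARFs at 36.3% and 12.5%.

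All 10 chromosomes carried members, at densities between 4.06 sites per Mb on chromosome 2 and 4.57 on chromosome 6. Members made up between 23.9% of the sites with both ARFs on chromosome 2 (22.6 to 25.2%) and 27.4% on chromosome 6 (25.8 to 29.1%), with chromosome 4 also at 27.4% (26.0 to 28.8%). The intervals of chromosomes 2, 4 and 6 did not include the share of 25.6% over the genome, and those of the other chromosomes did.

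Members also had fewer close neighbours than sites with further ARFs taken as a whole. Another site of any ARF lay within 1 kb of 20.8% of members (20.0 to 21.7%), against 21.5% of all sites and 29.4% of sites with further ARFs (28.9 to 29.99%), a difference of −8.63 points (−9.63 to −7.62). Sites with 8 further ARFs were an exception, with a share of 20.3% (18.2 to 22.6%). With equal list lengths the share of members fell to 10.3% (7.68 to 13.7%) and the difference was −4.24 points (−7.05 to −0.718). The share was 21.6% for sites of ARF34 alone (21.1 to 22.1%), and the interval of its difference from members included 0 (−1.77 to 0.216). Sites of ARF16 alone had fewer close neighbours, with 16.99% (15.3 to 18.9%), and members exceeded them by 3.81 points (1.75 to 5.74). Against sites with ARF27 or ARF4 as the only further ARF, members were lower, with differences of −7.99 points (−9.73 to −6.28) and −4.90 points (−6.99 to −2.89). In the 5 bins of mean rank the differences were −6.53, −6.22, −4.07, −6.20 and −3.66 points from weakest to strongest, and only the last interval included 0. The nearest site lay a median of 3970.5 bp from a member and 2608 bp from a site with further ARFs.

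Of the 1865 members with a site within 1 kb, the nearest site held neither ARF16 nor ARF34 in 33.5% of cases (31.4 to 35.6%). In 26.5% it held both together with further ARFs (24.6 to 28.6%), in 19.8% ARF34 alone (18.04 to 21.7%) and in 8.20% it was another member (7.04 to 9.54%). These kinds made up 42.0%, 21.0%, 18.7% and 7.21% of all sites. A peak of the other 12 lists lay within 1 kb of 1375 members (15.3%, 14.6 to 16.1%), and the median distance to such a peak was 5866.5 bp.

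Few members lay near the edge of the overlap rule. A peak of another list came within 50 bp at 75 members, whose median rank was 32.4 in ARF16 and 58.6 in ARF34. The closest case, with a gap of 1 bp, was found at 2 members, 1 of which was chr7:162076528-162076792 (43.1 reads in ARF16 and 58.5 in ARF34). On the other side of the rule, 32 sites were left out through peaks of other ARFs whose summits all lay more than 150 bp from any ARF16 or ARF34 summit. Their median ranks were 31.0 in ARF16 and 48.8 in ARF34. The median signals were 43.1 reads in ARF16 and 57.4 in ARF34 for the 75 members, and 42.4 and 49.1 for the 32 sites left out. The sites on both sides of the rule therefore had like ranks and signals in ARF16. In the outer 20% of the chromosomes lay 33.3% of the 75 members (23.7 to 44.6%), against 21.8% of all members. For the 32 sites left out the share was 28.1% (15.6 to 45.4%).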

How the data were processed

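Single-end reads had been trimmed (trimmomatic) and aligned by the authors to B73 RefGen version 3 with bowtie2 (2.2.8 in the submitters' processing notes); only reads of high mapping quality were kept, which under-represents near-identical repeats. They called peaks for each ARF with GEM, with GST-HALO as background. As the signal of each binding event the authors deposited its read depth from GEM. The −log10 p-value and −log10 q-value were deposited too, capped at 999.

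Peaks were merged where they overlapped by at least 1 bp. The strongest peak of a list stood for a site. Shares have 95% Wilson intervals and differences Newcombe intervals. Chromosome spans ran to the last peak end. Python 3.11.15, numpy 2.4.6, scipy 1.17.1 and pandas 2.3.3 were used. Merging was checked against bedtools 2.31.1 and tested on simulated data. The members, comparisons and alternatives were chosen with earlier results of these data known. The regions named are the 10 members of highest mean rank, the highest on each chromosome, the 5 largest rank differences in each direction, the widest, and those nearest the overlap limit. No genome or annotation of this build was used here, so the planned motif and gene comparisons were not run.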

Additional observations from a re-analysis of the deposited data

How the results depend on the processing

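With 100 bp of overlap required for a merge there were 9210 members, and with gaps of up to 100 bp bridged 8803. A −log10 q of at least 10 in every list left 6153 members, which were 32.6% of the sites with both ARFs, and an outer 20% difference of −7.095 points. Applied to ARF16 and ARF34 only, it left 2330 members, 12.3% of these sites and −7.39 points. Equal list sizes (7520 peaks each) left 398 members, 7.95% of these sites, with 67.6% of summits 1 bp apart, and a position difference of −1.56 points whose interval included 0. With 1 peak of each ARF 73.5% of summits were 1 bp apart. With the outer 40% the position difference was −7.82 points. Within 4 of the 5 bins of mean rank, an alternative chosen after seeing the data, it moved to −4.33, −4.10, −4.87 and −7.47 points. Leaving out each of the other 12 lists in turn gave 8968 to 12422 members, 25.6 to 35.4% of the sites with both ARFs, 71.8 to 72.4% of summits 1 bp apart and position differences of −6.63 to −4.41 points. The differences from sites with further ARFs in position, in the 1 bp share and in close neighbours kept their direction under the alternatives run. For the 1 bp share several intervals included 0. With equal list sizes the difference was 3.13 points (−1.81 to 7.75). In bins 4 and 5 of mean rank it was 1.91 points (−1.32 to 4.99) and 3.09 points (−4.20 to 9.62). With 1 peak of each ARF the interval also included 0. The 12, 29 and 33 bp differences were run only with 1 peak of each ARF, and differences from other sets of sites under none of these. For close neighbours the lowest and highest differences over the merges, q limits and list lengths were −9.92 and −4.24 points. No paired analysis was possible because each ARF had 1 library. Depth limits which weak sites were called, and the depth of the ARF16 library is not known here.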

Other observations

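The spacing of members is given as values only. The gap from one member to the next on the same chromosome had a median of 155654 bp and was 6 bp at its smallest. Of the 7077 windows of 100 kb that held a member, 5485 held 1, and the largest number in a window was 5, reached in 3 windows.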
